A study of Mus musculus with 6 samples.

Results

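The interferon-inducible genes examined here were 43 named genes of the type I and type II interferon response, from receptors and transcription factors to antiviral effectors, guanylate-binding and immunity-related GTPases and the class I antigen presentation machinery. A gene entered when a probe set of the array was annotated to that gene alone, and the probe set with the highest mean log2 intensity was kept. In this way 40 of the 43 were measured, among 18193 genes in all, and Isg15, Ifi44 and Gbp4 were not analysed here. RNA of CD4+ T cells of memory phenotype was hybridised, 3 arrays for the spinal cord and 3 for the draining inguinal lymph node, all of female C57BL/6 mice, 8 to 10 weeks old. All mice of both groups had acute clinical experimental autoimmune encephalomyelitis (EAE), in which T cells attack the myelin of the central nervous system, induced with the myelin oligodendrocyte glycoprotein peptide MOG35-55. No unimmunised animals enter the comparison, so both groups come from inflamed mice, and the labels leave out how many mice stand behind an array.

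Interferons reach T cells through surface receptors that activate Janus kinases, which phosphorylate STAT proteins. Type II interferon, interferon gamma, signals through Ifngr1 and Ifngr2 to factors that bind GAS elements in promoters and induce Irf1, the guanylate-binding proteins and antigen presentation genes. Type I interferons signal through Ifnar1 and Ifnar2 to a complex that holds STAT2 and IRF9 and binds ISRE elements in the promoters of antiviral genes such as Mx1, the Ifit genes and the Oas genes. In EAE the helper T cells that enter the spinal cord are a known source of interferon gamma, and the question here is whether high Ifng in the spinal cord samples went with a response of these genes in the same samples.

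Array medians lay between 68 and 71 on the deposited intensity scale, and with 3 arrays per tissue the precision is limited. Nothing in the labels says whether the 3 arrays of a tissue come from separate animals, so every p-value below reflects only how these 6 samples scatter, a scatter that may be technical. CD4 T cell markers were present in both tissues, with none of 9 measured markers called by limma (0 also at an unadjusted p below 0.05) and a median log2 change of -0.04. Cd8a, a marker of CD8 T cells, read 165 to 225 in spinal cord, against 121 to 186 in lymph node. Cd8b1, the other CD8 marker, had a change of the opposite sign, at 116 to 124 in spinal cord, against 118 to 134 in lymph node. Of 19 macrophage, monocyte and microglia markers none was called with tissue alone by limma (16 had an unadjusted p below 0.05), and 10 were called higher with the replicate number as a block (52.6%, beside 11.1% of all genes in either direction). In 16 of the 19 every spinal cord array exceeded every lymph node array, as in 8.81% of all genes, and the median log2 change was 1.31. Their summed intensity was 16612 to 26090 in spinal cord, against 16122 to 17800 in lymph node. The sum is mostly Ctss and Ccr2, which both tissues express, while C1qb read 42, 176 and 150 in spinal cord, against 13, 14 and 12 in lymph node. Spinal cord array 2 had the highest myeloid sum and also the highest neutrophil sum, 2307 against 575 and 849 in the other spinal cord arrays and 436 to 602 in lymph node. B cell and plasma cell markers summed to 617 to 644 in spinal cord, against 1178 to 1345 in lymph node, and 1 of 12 was called lower, Cd22. That gene read 108, 98 and 116 in spinal cord, against 620, 679 and 750 in lymph node, and made up most of the difference between the sums, while 6 of the 12 markers had positive and 6 negative changes. Dendritic cell markers summed to 1161 to 1888 in spinal cord, against 721 to 1029 in lymph node, and 2 of 11 were called higher, Itgax and Ccr9. The median log2 change of the 11 was 0.21. The sum includes Bst2, itself one of the members, at 402, 175 and 974 in spinal cord, against 357, 113 and 350 in lymph node.

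The ligand gene Ifng differed far more between the tissues than any of the 40 measured members. Ifng read 12905, 18966 and 21388 in spinal cord, against 258, 628 and 781 in lymph node, in the order of the array numbers used throughout. The lowest spinal cord value lay far above the highest lymph node value, and the log2 change was 5.11 ± 0.44 SE (34.6-fold, limma adjusted p = 0.00777). Of the 40 measured interferon-inducible genes, 1 was called higher, Rsad2, and none was called lower (limma, Benjamini-Hochberg adjusted p below 0.05). Over all genes 2.54% were called in either direction, 1.13% higher and 1.41% lower. At an unadjusted p below 0.05, 6 of the 40 members were higher and 0 lower. Over all 18193 genes, 981 were higher and 1618 lower at that threshold, 14.3% in either direction. The members' median log2 change was 0.05, against 0.0019 over all genes, and 23 members had positive and 17 negative changes, from -0.80 to 1.76. In bulk samples, fewer cells of a type that express a gene and less RNA of that gene per cell cannot be told apart.

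**Figure D1:**
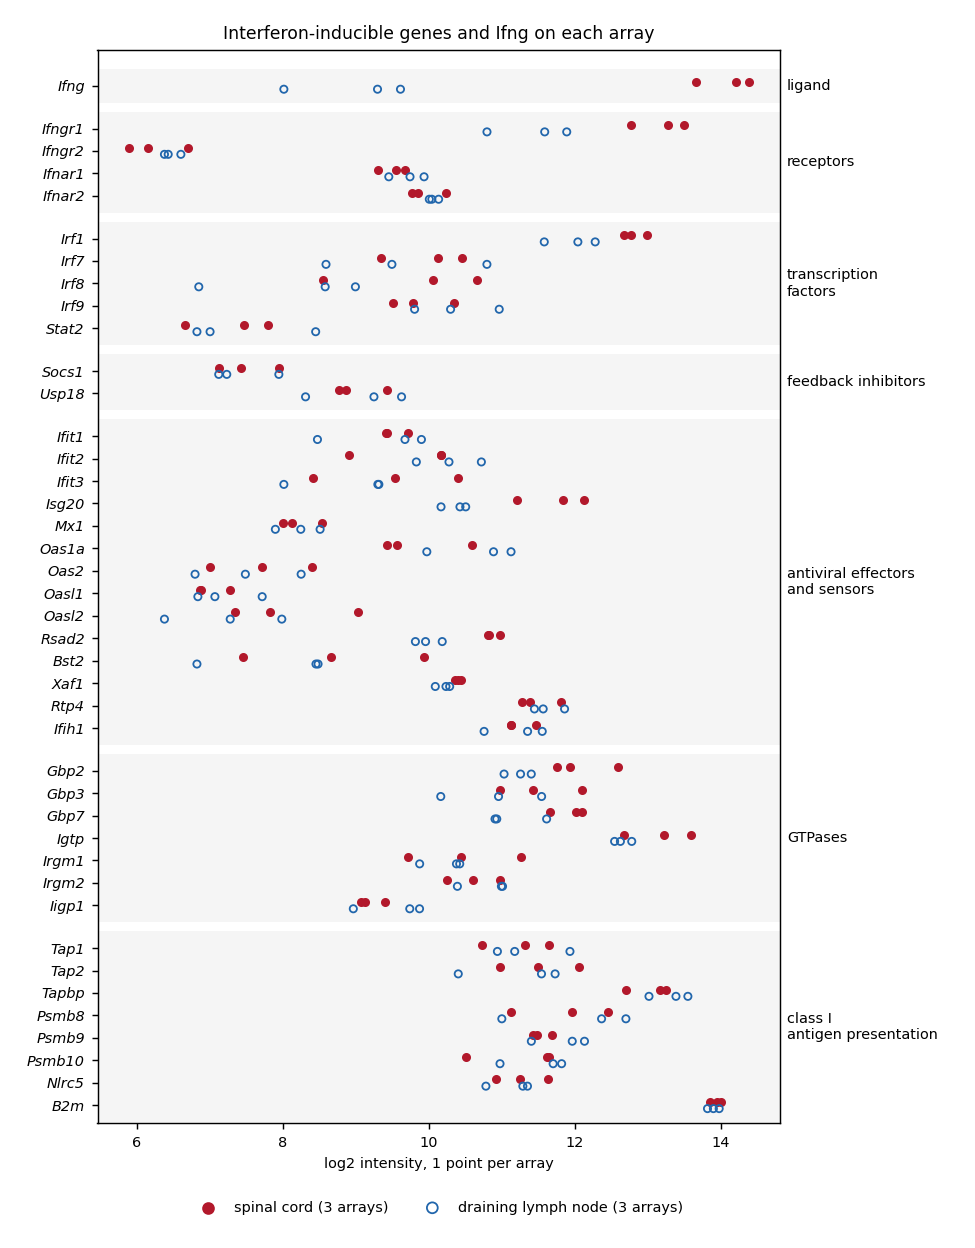
Log2 intensity of Ifng and the 40 measured interferon-inducible genes (rows, grouped by role), with 1 point per array, filled for the 3 spinal cord arrays and open for the 3 draining lymph node arrays. The Ifng points lie in separate clusters, whereas 33 of the 40 member genes have overlapping tissues.

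Of the 40 members, 7 did not overlap between the tissues, and all 7 were higher in spinal cord. They were Ifngr1, Irf1, Isg20, Rsad2, Xaf1, Gbp2 and Gbp7, a share of 17.5%, beside 8.81% of all genes that did so in this direction and 9.68% in the other. The precision was modest. The median standard error of a member's log2 change was 0.28, against 0.18 over all genes. For 21 of 40 members the 95% interval of the change ended below 1, that is below a 2-fold rise, and for 35 it ended below 2. The remaining 5, among them Ifngr1, Irf8 and Bst2, had intervals that reached beyond 2. These intervals are from the fit with tissue alone. With the replicate number as a block, the interval ended below 1 for 30 of the 40.

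**Figure D2:**
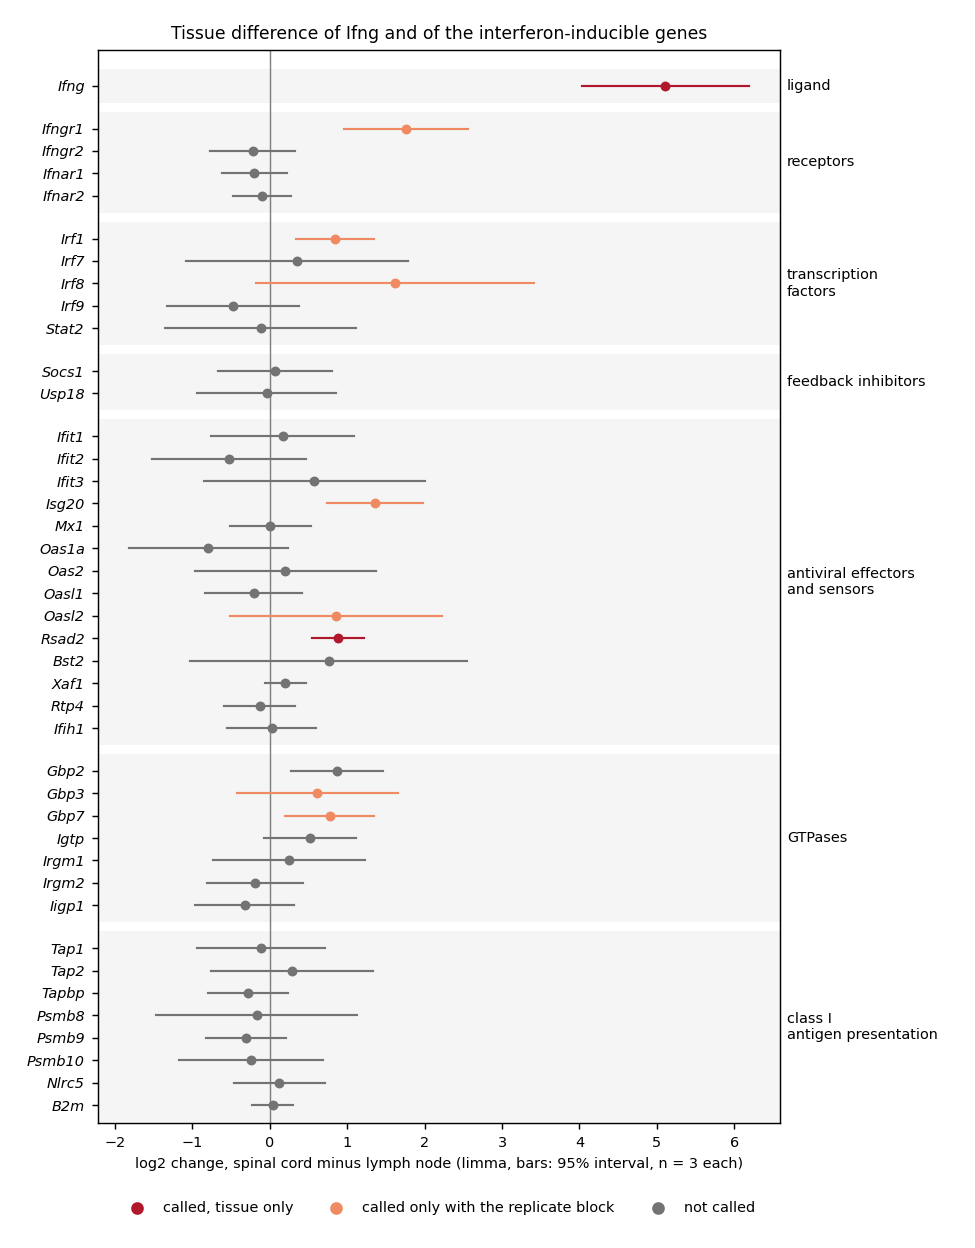
Log2 change, spinal cord minus lymph node, of Ifng and the 40 members by limma (points) with its 95% interval (bars, n = 3 arrays per tissue), coloured by whether the gene was called with tissue alone or only after the replicate number was added. Ifng lies at 5.11, and the members lie between -0.80 and 1.76.

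In each tissue the arrays carry the numbers 1 to 3 in their titles, and those of the same number deviated together from their tissue means. Adding that number to the fit as a block raised the members called to 8, all higher, a share of 20%, where 3.67% of all genes were called higher and 7.45% lower. They were Ifngr1, Irf1, Irf8, Isg20, Oasl2, Rsad2, Gbp3 and Gbp7. At an unadjusted p below 0.05 in the same fit, 11 members were higher and 3 lower. None of the 8 was called by limma when both arrays of number 1, 2 or 3 were left out of the blocked fit, although 12, 8 and 9 members were then higher at an unadjusted p below 0.05, and 4, 1 and 2 lower. Without number 1, 1562 of all genes were higher and 3452 lower at an unadjusted p below 0.05. Without numbers 2 or 3 no gene at all was called (952 and 931 genes were higher and 2033 and 1660 lower at an unadjusted p below 0.05). Within the same-numbered arrays, 13 members were higher in spinal cord in all 3 ratios and 6 were lower, beside 20.2% and 24.7% of all genes. The member median within the 3 numbers was 0.12, 0.13 and 0.12 on the log2 scale.

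**Figure D3:**
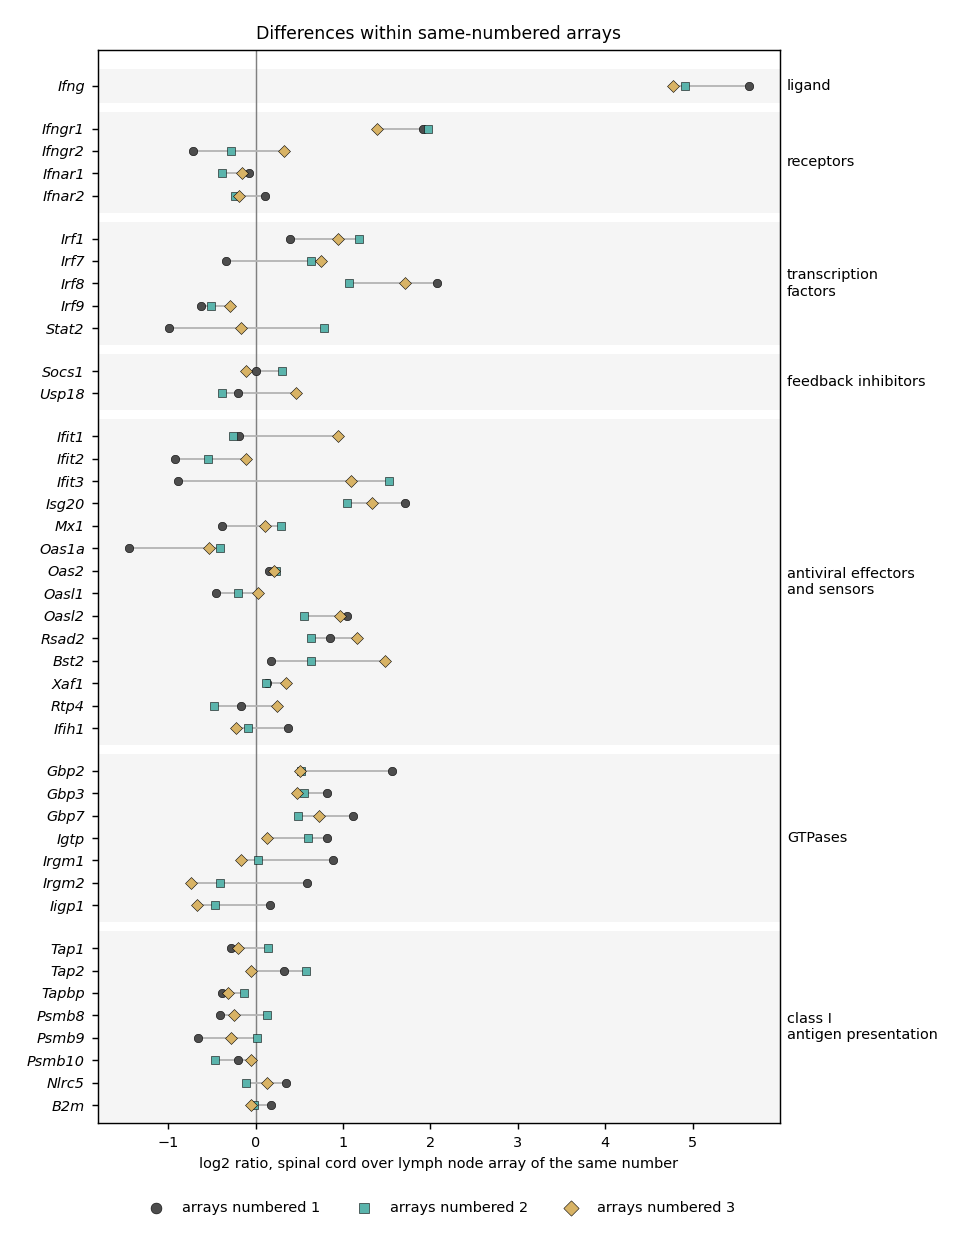
Log2 ratio of the spinal cord array over the lymph node array of the same number for Ifng and the 40 members, with 1 symbol for each of the 3 numbers. Ifng lies between 4.78 and 5.64 in all 3 numbers, while 21 of the members change sign between numbers.

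The promoters of several members carry the letters that interferon-activated factors are known to bind, and a few are shown here, from the transcription factors, a feedback inhibitor, the antiviral genes and the GTPases. The searches used GAAANNGAA for the core of an ISRE, on both strands, and TTCNNNGAA for a GAS element, which reads the same on both strands. Where copies of the ISRE letters overlap, each was counted. Promoters were those of RefSeq, from 250 bases before to 50 bases after the gene start on GRCm38.p6, and 33 of the 40 members had an entry. The ISRE letters stood in 15 of these 33 genes (45.5%), against 9.76% of 27025 genes in the table, and the GAS letters stood in 12 (36.4%), against 9.55%. All 6 GTPase genes with an entry held the ISRE letters, whereas 1 of 6 class I presentation genes and 0 of 4 receptor genes did. Of the 8 members called with the block, 6 held either motif, and of the other 25 with an entry, 16 did. A match of letters is not a bound site. In the lines below, capitals mark the matches in the sequence along the gene's own strand.
Rsad2: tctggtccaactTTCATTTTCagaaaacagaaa
Gbp2: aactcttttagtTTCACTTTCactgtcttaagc
Igtp: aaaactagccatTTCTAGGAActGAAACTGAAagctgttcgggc
Irgm2: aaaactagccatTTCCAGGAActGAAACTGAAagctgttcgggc
Ifit1: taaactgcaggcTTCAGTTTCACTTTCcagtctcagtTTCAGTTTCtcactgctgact
Socs1: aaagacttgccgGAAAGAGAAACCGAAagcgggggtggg
Irf1: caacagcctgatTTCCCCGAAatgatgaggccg

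The Rsad2 stretch lies at chr12:26456551-26456583 on the minus strand and the Gbp2 stretch at chr3:142620593-142620625 on the plus strand, both with the ISRE letters on the opposite strand of the gene. The neighbouring GTPase genes Igtp (chr11:58199499-58199542, plus strand) and Irgm2 (chr11:58214890-58214933, plus strand) have stretches of 44 bases that differ at 1 base, each with the GAS letters followed closely by the ISRE letters. Ifit1 (chr19:34640768-34640825, plus strand) has 3 copies of the ISRE letters on the opposite strand, of which 2 overlap. Socs1 (chr16:10785593-10785631, minus strand) has 2 overlapping ISRE copies, and Irf1 (chr11:53769912-53769944, plus strand) has a GAS match that starts at -90 from the gene start.

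**Figure D4:**
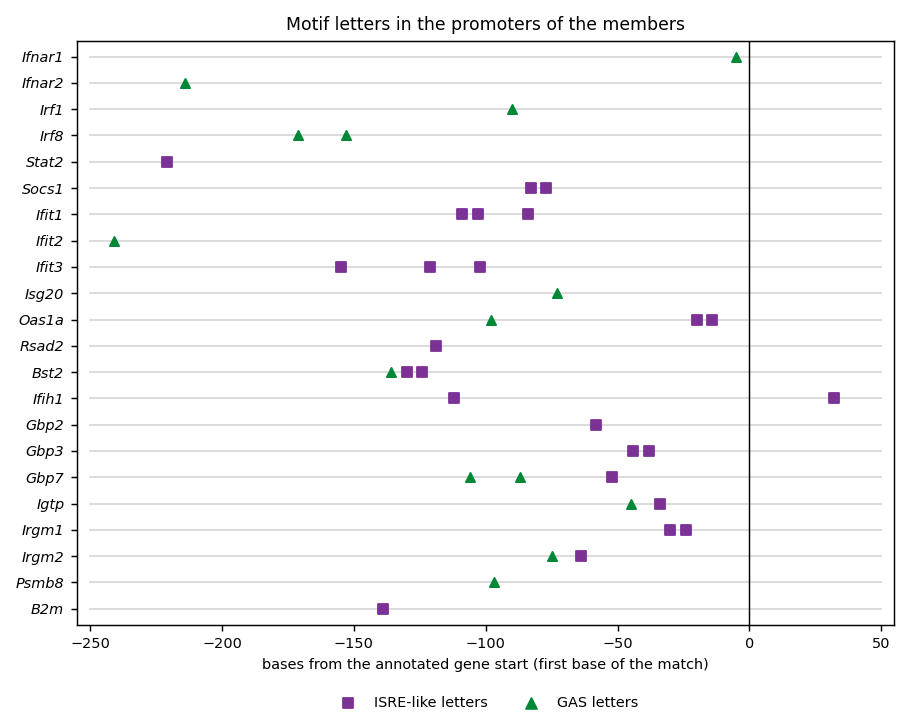
Position of the ISRE letters (squares) and the GAS letters (triangles) in the promoters of the 22 members that hold either, as the first base of each match in bases from the annotated gene start. Most matches lie before the start, in a window of 250 bases before and 50 after it.

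Among the receptors, the ligand-binding chain of the interferon gamma receptor was the member with the largest change, and the other chains overlapped between tissues at the probe sets kept. Ifngr1 read 11574, 6982 and 9951 in spinal cord, against 3073, 1776 and 3788 in lymph node. The tissues did not overlap, and the log2 change was 1.76 ± 0.33 SE (3.39-fold), yet the limma adjusted p was 0.0581 and it fell below the threshold only in some other settings (0.00344 with the block, 0.0356 without dim genes, 0.0271 with a trended and robust prior). With single arrays left out, its adjusted p was 0.0813 to 0.185. Ifngr2, the signal-transducing chain, read 59, 71 and 104 in spinal cord, against 97, 86 and 83 in lymph node. These values lay near the array medians of 68 to 71 and overlapped between tissues (log2 change -0.22, 95% interval -0.77 to 0.32), and type 1 helper cells are known to keep little of this chain. A second Ifngr2 probe set was as dim, at 56 to 79 in spinal cord, against 66 to 84 in lymph node.

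The type I receptor chains overlapped between tissues at the probe sets kept. Ifnar1 read 813, 751 and 628 in spinal cord, against 855, 977 and 699 in lymph node (log2 change -0.20, 95% interval -0.62 to 0.22). Ifnar2 read 1206, 875 and 924 in spinal cord, against 1122, 1027 and 1052 in lymph node (log2 change -0.10, 95% interval -0.48 to 0.27). The remaining Ifnar2 probe sets did not follow it. One read 347, 512 and 235 in spinal cord, against 1474, 842 and 704 in lymph node, with a log2 change of -1.46 ± 0.38 SE (limma adjusted p over 34945 probe sets = 0.173, 0.0413 with the block). Another read 219, 230 and 121 in spinal cord, against 465, 942 and 599 in lymph node, with a change of -1.81 ± 0.36 SE (adjusted p = 0.0867, 0.0216 with the block). The last set is of a type whose probes may bind other transcripts. Both were lower in every spinal cord array than in any lymph node array, and which transcripts each probe set detects was not tested.

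Other parts of the pathway, taken from lists of the ligands, the kinases and STATs and the inhibitors, gave 2 calls with tissue alone, Ifng and Cish. Of 9 measured ligand genes, Ifng was the 1 called higher. Ifnb1, the gene of interferon beta, read 31, 28 and 31 in spinal cord, against 29, 26 and 31 in lymph node, and the 6 measured genes of the interferon alpha family read 26 to 76 in spinal cord, against 25 to 73 in lymph node, all close to or below the array medians, though probe sets of this multigene family may detect one another. Of 17 measured kinases, STATs, regulators and inhibitors, Cish was called higher and none lower (5.88% of this list, beside 2.54% of all genes). With the block 1 was called higher and 3 lower (23.5%, beside 11.1%), the lower ones being Jak2, the phosphatase gene Ptpn11 (log2 change -0.96, adjusted p = 0.0342 with the block) and Irf3, a factor that drives interferon beta (-0.67, 0.0180 with the block). Cish encodes a cytokine-inducible inhibitor known mainly from STAT5 signals, and it read 9692, 6547 and 6087 in spinal cord, against 1667, 838 and 868 in lymph node (6.83-fold, limma adjusted p = 0.0148, called in 2 of 6 fits without a single array). Jak2, the kinase bound to Ifngr2, read 2798, 3075 and 2525 in spinal cord, against 3858, 4696 and 4544 in lymph node. Its tissues did not overlap, with a log2 change of -0.64 ± 0.14 SE (adjusted p = 0.0833, 0.0321 with the block). Jak1, the kinase shared by both receptor types, and Tyk2, the kinase bound to Ifnar1, overlapped, with log2 changes of -0.07 ± 0.31 SE and -0.19 ± 0.44 SE.

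Among the transcription factors Irf1, Irf7 and Irf8 had positive changes, and Irf9 and Stat2 of the type I complex had negative ones. None of the 5 was called with tissue alone by limma, and 1, Irf1, had an unadjusted p below 0.05. Irf1, a factor induced by interferon gamma that drives antigen presentation genes, read 6531, 6956 and 8109 in spinal cord, against 4964, 3060 and 4211 in lymph node. All spinal cord values exceeded all lymph node values (1.79-fold, log2 change 0.84 ± 0.21 SE, adjusted p = 0.12, 0.0381 with the block). Irf8, known from myeloid and B cells as well as activated T cells, read 1614, 1067 and 375 in spinal cord, against 382, 509 and 115 in lymph node.

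The Irf8 tissues overlapped, while the ratio within same-numbered arrays was 4.23, 2.10 and 3.26 (log2 change 1.62 ± 0.74 SE, adjusted p = 0.406, 0.00995 with the block). A second Irf8 probe set read 299, 216 and 249 in spinal cord, against 133, 125 and 108 in lymph node, without overlap (2.08-fold, adjusted p over probe sets = 0.0442). Macrophage, monocyte and microglia markers, which include cells that use Irf8, were higher in the same spinal cord arrays by a median log2 change of 1.31. The part of those cells in the Irf8 values was not tested. Irf7, which amplifies the type I response, read 1399, 1120 and 649 in spinal cord, against 1775, 720 and 385 in lymph node, and in both tissues the array numbered 1 was brightest and the array numbered 3 dimmest (log2 change 0.35 ± 0.59 SE). Irf9, the DNA-binding part of the type I complex, read 1297, 881 and 728 in spinal cord, against 1995, 1257 and 893 in lymph node, lower in spinal cord within each number (log2 change -0.48 ± 0.35 SE, adjusted p = 0.641, 0.0638 with the block). Stat2, the partner of Irf9, read 176, 221 and 101 in spinal cord, against 349, 128 and 113 in lymph node, and a second probe set had a change of the opposite sign (-0.12 and 0.02).

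Neither of the feedback inhibitors was called, and their changes were small with wide 95% intervals. Socs1, which blocks Janus kinases and is induced by interferon gamma, read 247, 171 and 139 in spinal cord, against 246, 139 and 150 in lymph node, with a log2 change of 0.06 (95% interval -0.67 to 0.80). Usp18, which restrains the type I receptor, read 687, 465 and 436 in spinal cord, against 789, 607 and 317 in lymph node, with a change of -0.04 (95% interval -0.94 to 0.86). In both genes the arrays of number 1 were the brightest of their tissue.

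Of 14 measured antiviral effectors and sensors, 1 was called higher by limma, 10 had positive changes and the median was 0.18. Rsad2, which encodes the antiviral enzyme viperin, read 1789, 1803 and 2010 in spinal cord, against 991, 1161 and 900 in lymph node. It rose 1.84-fold in spinal cord without overlap (log2 mean 10.86 ± 0.09 against 9.98 ± 0.19, SD, n = 3 arrays each, log2 change 0.88 ± 0.14 SE, limma adjusted p = 0.0346). No fit without a single array called it (adjusted p = 0.067 to 0.125), nor did the fits without dim genes (0.0505), with the trended and robust prior (0.117), with the mean of its probe sets (0.0502) or with a floor (0.0626). A second Rsad2 probe set read 286, 211 and 319 in spinal cord, against 161, 141 and 182 in lymph node, in the same direction (log2 change 0.74 ± 0.19 SE). The third was dim and overlapped, at 75, 83 and 100 in spinal cord, against 77, 58 and 62 in lymph node. Its log2 change was 0.39 ± 0.17 SE (limma adjusted p over probe sets = 0.423, 0.251 with the block).

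Isg20, an exonuclease that degrades viral RNA, had a larger change with more spread. It read 4476, 2363 and 3661 in spinal cord, against 1374, 1148 and 1451 in lymph node, again without overlap (2.57-fold, log2 change 1.36 ± 0.25 SE, adjusted p = 0.0576, 0.00718 with the block). It passed the threshold without dim genes (0.0414) and after quantile normalization (0.0462). Xaf1, a gene linked to apoptosis, did not overlap either but differed little, at 1313, 1354 and 1384 in spinal cord, against 1203, 1246 and 1087 in lymph node (log2 change 0.20 ± 0.11 SE). Oasl2, of the family of oligoadenylate synthetase genes, read 522, 227 and 162 in spinal cord, against 253, 155 and 83 in lymph node, higher in spinal cord within each number but overlapping between tissues (log2 change 0.85 ± 0.56 SE, adjusted p = 0.59, 0.0202 with the block).

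The classical type I antiviral genes did not share a direction. Ifit1 read 838, 679 and 685 in spinal cord, against 953, 815 and 355 in lymph node (log2 change 0.17 ± 0.38 SE). Ifit2 read 480, 1151 and 1146 in spinal cord, against 908, 1684 and 1238 in lymph node, lower in spinal cord within each number (log2 change -0.53 ± 0.41 SE, adjusted p = 0.665). Ifit3 read 341, 744 and 1351 in spinal cord, against 630, 258 and 636 in lymph node (log2 change 0.58 ± 0.59 SE), lower in number 1 and higher in numbers 2 and 3. The Ifit proteins bind viral RNA that lacks host cap marks, and the 3 genes thus had changes of different sign with overlapping tissues.

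Oas1a, whose product makes the activator of RNase L, had the most negative change of the members. It read 690, 754 and 1543 in spinal cord, against 1890, 1003 and 2232 in lymph node, overlapping between tissues and lower within each number (log2 change -0.80 ± 0.42 SE, adjusted p = 0.487, 0.0832 with the block). Oas2 read 338, 210 and 128 in spinal cord, against 304, 179 and 111 in lymph node. Its ratios within numbers were alike, at 1.11, 1.17 and 1.15 (log2 change 0.20, adjusted p = 0.91, 0.316 with the block). Mx1, the influenza resistance gene, of which C57BL/6 mice are known to carry a defective allele, read 279, 370 and 257 in spinal cord, against 364, 303 and 238 in lymph node (log2 change 0.01, 95% interval -0.52 to 0.53). Bst2, the surface protein tetherin, varied widely among arrays, at 402, 175 and 974 in spinal cord, against 357, 113 and 350 in lymph node (log2 change 0.76 ± 0.73 SE). The others, namely Oasl1, Rtp4 and the RNA sensor gene Ifih1, had log2 changes of -0.21, -0.13 and 0.02 and overlapped.

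The interferon-inducible GTPases, which attack the vacuoles of intracellular pathogens, had the highest median of the role groups, 0.52, but none of 7 was called with tissue alone by limma (2 had an unadjusted p below 0.05). The 3 measured members of the guanylate-binding protein genes had positive changes. Of the wider list, Gbp6 did not overlap and had a log2 change of 0.98 ± 0.23 SE (limma adjusted p = 0.113, 0.0275 with the block). Gbp8 of that list had a log2 change of -0.10. Gbp2 read 6171, 3891 and 3464 in spinal cord, against 2089, 2705 and 2443 in lymph node, without overlap (1.82-fold, log2 change 0.86 ± 0.24 SE, adjusted p = 0.169, 0.0779 with the block). The probe set kept for Gbp2 is of a type whose probes may bind other transcripts, and the gene's other probe set gave the same change (1.82-fold, adjusted p over probe sets = 0.0573, 0.0232 with the block). Gbp7 read 4138, 4368 and 3217 in spinal cord, against 1917, 3129 and 1949 in lymph node, also without overlap (1.71-fold, log2 change 0.77 ± 0.24 SE, adjusted p = 0.205, 0.0332 with the block). Gbp3 read 2013, 4368 and 2747 in spinal cord, against 1145, 2984 and 1982 in lymph node, higher within each number but overlapping (1.53-fold, adjusted p = 0.622, 0.0341 with the block).

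The immunity-related GTPase genes were less uniform. Igtp read 12362, 9587 and 6547 in spinal cord, against 7024, 6307 and 5968 in lymph node, higher within each number, with array 3 of spinal cord inside the lymph node range (log2 change 0.52 ± 0.24 SE, adjusted p = 0.417). Irgm2, whose promoter stretch is nearly the same, read 2008, 1556 and 1218 in spinal cord, against 1341, 2059 and 2037 in lymph node, with a change of the opposite sign (-0.19 ± 0.25 SE). Whether the changes of Igtp and Irgm2 differ was not tested. Irgm1, a regulator of the other members of its family, read 2452, 1394 and 835 in spinal cord, against 1329, 1371 and 937 in lymph node (0.25 ± 0.40 SE). Iigp1 read 559, 677 and 536 in spinal cord, against 499, 936 and 853 in lymph node (-0.32 ± 0.26 SE). Irgm1, Irgm2 and Iigp1 were each higher in spinal cord in number 1 and lower in number 3.

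The class I antigen presentation genes were bright in both tissues and had a median of -0.14, with none of 8 called with or without the block by limma (0 also at an unadjusted p below 0.05 with tissue alone). B2m, the invariant light chain of class I molecules, read 16353, 15855 and 14716 in spinal cord, against 14424, 16113 and 15253 in lymph node. Its change was 0.04 with the 95% interval from -0.23 to 0.30. The immunoproteasome genes, which shape the peptides for class I, all had negative changes. Psmb9 read 2851, 2746 and 3286 in spinal cord, against 4484, 2707 and 3992 in lymph node (log2 change -0.30, 95% interval -0.82 to 0.21), and Psmb8 and Psmb10 had changes of -0.17 and -0.24.

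The peptide transporter and its partners also had small changes, none of them called. Tap1 read 3210, 2555 and 1700 in spinal cord, against 3906, 2311 and 1961 in lymph node (log2 change -0.11, 95% interval -0.94 to 0.71). Tap2 read 4250, 2016 and 2876 in spinal cord, against 3392, 1352 and 2981 in lymph node (0.28, 95% interval -0.76 to 1.33). Tapbp, the bridge between the transporter and class I, read 9187, 9751 and 6634 in spinal cord, against 11972, 10691 and 8274 in lymph node, lower within each number (-0.28, 95% interval -0.79 to 0.24). Nlrc5, the transactivator of class I genes, had a change of 0.12 (95% interval -0.46 to 0.71). For 6 of these 8 genes the 95% interval ended below a 2-fold rise with tissue alone, the exceptions being Tap2 and Psmb8. With the block it did so for all 8.

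**Figure D5:**
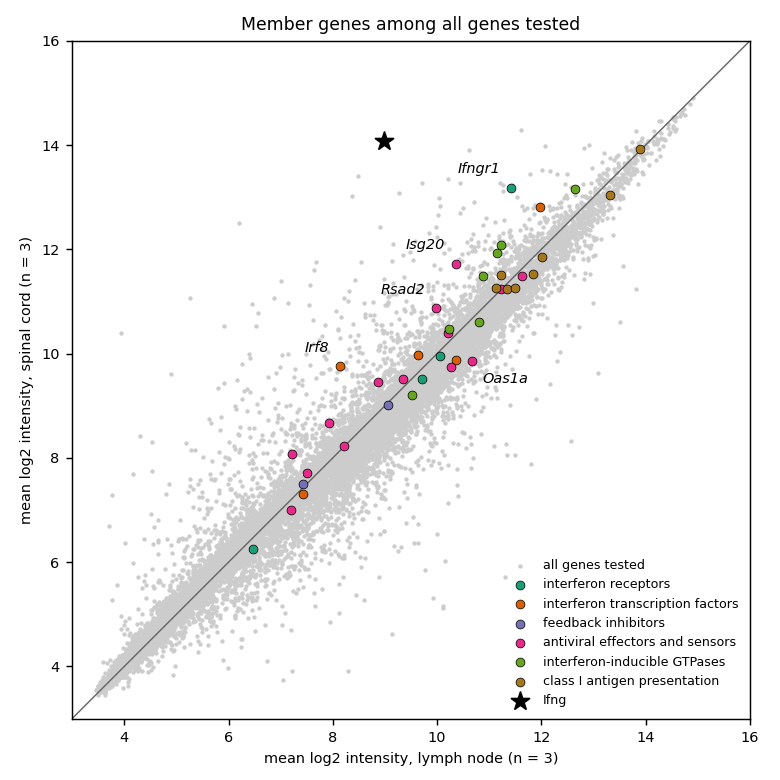
Mean log2 intensity of each gene in spinal cord (vertical axis) and lymph node (horizontal axis), n = 3 arrays each, for all 18193 genes (grey), the 40 members (coloured by role) and Ifng (star), with the line of equal means. Ifng lies far above the line, and most members lie along it at middle to high intensity.

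A wider list of interferon-inducible genes gave a similar picture, with a few clear exceptions. Of 77 listed, 62 were measured, 3 were called higher and 1 lower (6.45%, beside 2.54% of all genes), and the median log2 change was 0.01. With the block 8 were higher and 7 lower (24.2%, beside 11.1%). Cxcl10, a chemokine that attracts type 1 cells, read 764, 717 and 785 in spinal cord, against 205, 126 and 139 in lymph node (4.93-fold, log2 change 2.30 ± 0.20 SE, limma adjusted p = 0.00777). It was called in each of the 6 fits without a single array. Ifitm3, which blocks virus entry, read 3224, 1308 and 1798 in spinal cord, against 382, 152 and 110 in lymph node (10.6-fold, adjusted p = 0.037, called in 1 of the 6 fits). Ifitm1 (6.61-fold) and Ifitm2 (4.26-fold) were also higher without overlap, but neither was called with tissue alone. Their limma adjusted p was 0.075 and 0.206, and 0.000786 and 0.00132 with the block. Cd274, which encodes the inhibitory ligand PD-L1, read 1334, 1329 and 1405 in spinal cord, against 715, 776 and 638 in lymph node (1.92-fold, adjusted p = 0.018, called in none of the 6 fits, highest adjusted p 0.0833).

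In all, 14 of the 62 were higher and 5 lower in every spinal cord array than in any lymph node array, beside 8.81% and 9.68% of all genes. Cxcl9, a chemokine gene known from macrophages under interferon gamma, read 63, 534 and 265 in spinal cord, against 48, 52 and 50 in lymph node without overlap (log2 change 2.05 ± 0.74 SE, adjusted p = 0.28, 0.0310 to 0.548 without single arrays). The macrophage gene Lyz2 read 245, 1771 and 563 in spinal cord, against 78, 81 and 78 in lymph node. C1qa, from the same marker list, read 84, 177 and 286 in spinal cord, against 47, 41 and 47 in lymph node. The order of the spinal cord arrays thus depended on the marker. The part of myeloid cells in the values of Cxcl9, Cxcl10, Ifitm1, Ifitm2, Ifitm3 and Cd274 was not tested. Tor3a, a gene induced by type I interferon, was called lower, at 244, 281 and 232 in spinal cord, against 452, 429 and 432 in lymph node (1.74-fold lower, adjusted p = 0.0304, called in none of the 6 fits, highest adjusted p 0.123). Ifi27l2a, another type I gene, read 976, 874 and 3889 in spinal cord, against 3833, 3351 and 9408 in lymph node, lower within each number (log2 change -1.73 ± 0.68 SE, adjusted p = 0.33, 0.00481 with the block).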

How the data were processed

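Gene expression was measured on microarrays of 1 colour, from RNA labelled after an amplification in 2 cycles from 1 ng, per the labels' protocols. RMA is the method named per the submitters' processing notes, with its version not given in the sources used here. Intensity values were deposited as whole numbers on a linear scale, and log2 was taken before any test.

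Of 45101 probe sets, 34945 that were not controls had 1 gene symbol in the platform annotation, 932 had several and 9160 none, and 64 were controls. By gene identifier 34741 of the first matched RefSeq genes of GRCm38.p6 and 0 symbols changed. Per gene the probe set with the highest mean log2 intensity was used. Arrays were grouped by the tissue in the sample titles. Genes were tested with limma 3.58.1 in R 4.3.3 (lmFit, eBayes, tissue as the only term, two-sided, Benjamini-Hochberg over 18193 genes), with calls made below an adjusted p of 0.05. Intervals are limma's 95% intervals for single genes, not adjusted. The fits were tested on simulated data. Tables and figures used Python 3.11.15, pandas 2.3.3, numpy 2.4.6 and matplotlib 3.10.9.

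The alternatives tried were the replicate number as a block, fits without 1 array, removal of dim genes (40th percentile), median centring, quantile normalization, another prior, array weights, other choices of probe set, a floor (20th percentile) and stricter thresholds. A blocked fit without 1 number in both tissues was added after seeing the data. Across genes, which are not independent replicates, the correlation of deviations from the tissue mean was 0.576, 0.509 and 0.777 between same-numbered arrays and -0.569 to 0.00506 between others. Same-numbered arrays thus deviated together, but the labels do not state what they share, and this was not tested. These correlations come from the same arrays that the blocked fit uses. The members and lists were chosen with earlier results of these data known. Every member could be named. Values per array are given for called members, receptors, the 2 largest changes of each role group and further members. Of other lists, called genes, pathway kinases and some genes with low adjusted p are named. Of these lists, Ifi27l2a, Ifitm1, Ifitm2, Cxcl9, Gbp6, Gbp8, Ptpn11 and Irf3 were chosen after their values were seen. So were the markers C1qa, C1qb, Lyz2, Cd8a and Cd8b1. Of 43 members, 3 were not analysed here.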

Additional observations from a re-analysis of the deposited data

How the results depend on the processing

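With tissue alone 1 member was called higher and 0 lower by limma, and 0 were called lower in each of the 20 alternatives (0 to 4 at an unadjusted p below 0.05). The replicate block called 8 higher, against 668 genes higher and 1355 lower in all. Without dim genes and after quantile normalization 2 members were called higher. With the mean of all probe sets, a floor (77 genes higher and 84 lower in all), an adjusted p below 0.01 (56 and 47) or a log2 change of at least 1 the count was 0. Without single arrays it was 0 in every fit, and all genes called ranged from 49 to 136 higher and 32 to 190 lower. With the block and both arrays of a number left out it was 0, and 0 to 152 genes were higher and 0 to 176 lower. The member median ranged from -0.073 to 0.23 without single arrays. Ifng stayed called except without spinal cord array 2 (5.05, adjusted p = 0.0516) and, with the block, without numbers 2 (5.21, adjusted p = 0.128) or 3 (5.28, adjusted p = 0.0942). Its log2 change was 4.63 to 5.43 over the single arrays. The cause of these changes of call was not tested, though each such fit has fewer arrays.

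Sign changes occurred in 21 members, none of them called, and none with a change above 0.35 in size. They were Mx1 after centring (-0.016), Ifnar2 (0.026) and Usp18 (0.084) after quantile normalization, Stat2 (0.18) and Tap1 (0.0074) with array weights, Tap1 (0.079) with the mean of probe sets and Xaf1 (-0.012) with the most variable probe set. Without single arrays the log2 changes ran from -0.17 to 0.93 in Irf7, -0.42 to 0.39 in Stat2, -0.16 to 0.32 in Socs1, -0.42 to 0.24 in Usp18, -0.27 to 0.44 in Ifit1, -0.16 to 0.15 in Mx1, -0.16 to 0.57 in Oas2, -0.39 to 0.049 in Oasl1, -0.21 to 0.19 in Ifih1, -0.15 to 0.63 in Irgm1, -0.32 to 0.18 in Tap1, -0.13 to 0.55 in Tap2, -0.68 to 0.19 in Psmb8, -0.50 to 0.13 in Psmb10, -0.060 to 0.30 in Nlrc5 and -0.0047 to 0.079 in B2m. With the block, leaving out number 1 gave 0.024 in Ifngr2, 0.31 in Stat2, 0.038 in Usp18, -0.15 in Ifih1, -0.071 in Irgm1 and -0.037 in B2m. Leaving out number 2 gave -0.052 in Socs1, 0.13 in Usp18, -0.14 in Mx1 and 0.039 in Rtp4, and leaving out number 3 gave -0.22 in Ifit1, -0.048 in Mx1 and 0.089 in Irgm2. Arrays have no read depth, and 3 per tissue limit every value.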
